A study of Mus musculus with 16 samples.

Results

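The effect of the human SOD1G93A transgene on iWAT (inguinal white fat, a pad under the skin of the groin) was assessed by comparing all 8 libraries from carriers with all 8 from non-carriers, which together are the 16 libraries of the series. The 8 carriers were 4 SOD1G93A mice, which had 2 normal copies of Lep, and 4 SOD1G93A-Lepob/+ mice, which had the transgene and 1 copy of the ob allele of Lep. The 8 non-carriers were 4 WT mice, with neither mutation, and 4 Lepob/+ mice, with 1 ob allele only. All were labelled as C57BL/6 females aged 90 days, an age that the study places at the early symptomatic stage. The study bred them by crossing Lepob/+ females with SOD1G93A males. The transgene is a high-copy insertion of mutant human SOD1 that all cells can express, so an effect in fat cannot be told apart from one that begins in another tissue. Carriers and non-carriers were compared with the Lep genotype as an additive term, so that the result is the effect of the transgene averaged over both Lep genotypes.

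SOD1 is the cytosolic enzyme that removes superoxide, and the SOD1G93A form misfolds and forms aggregates. Mice that express it lose motor neurons, become paralysed, lose weight and spend more energy than their littermates. Earlier work cited by the study found less fat in them. In females at the age sampled here, however, the study reports a heavier iWAT pad and more circulating leptin in SOD1G93A than in WT mice. When all genotypes were weighed, it found little difference between pads, with some reduction in SOD1G93A-Lepob/+ against SOD1G93A. White fat stores triglyceride and secretes leptin, the hormone that reports fat stores to the brain. Misfolded protein in a cell is met by chaperones, by the proteasome and autophagy, and by the stress responses of the endoplasmic reticulum.

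No gene passed the test of a difference between carriers and non-carriers. Of 19736 genes tested with edgeR's quasi-likelihood test, 0 passed a Benjamini-Hochberg adjusted p of 0.05 (0% called), and the smallest adjusted p was 1. At an unadjusted p under 0.05 there were 450 genes (2.28%), of which 166 were higher in carriers (0.841%) and 284 were lower (1.44%), while 987 genes (5%) would fall there if p-values were spread evenly. DESeq2 called 1 gene and had 456 genes at an unadjusted p under 0.05. The limma voom fit with quality weights called 0 and had 1231. The 8 carrier libraries and the 8 non-carrier libraries did not separate without overlap for any gene (0 genes, 0%). Among all genes tested, 46.7% had an estimate above 0.

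**Figure D1:**
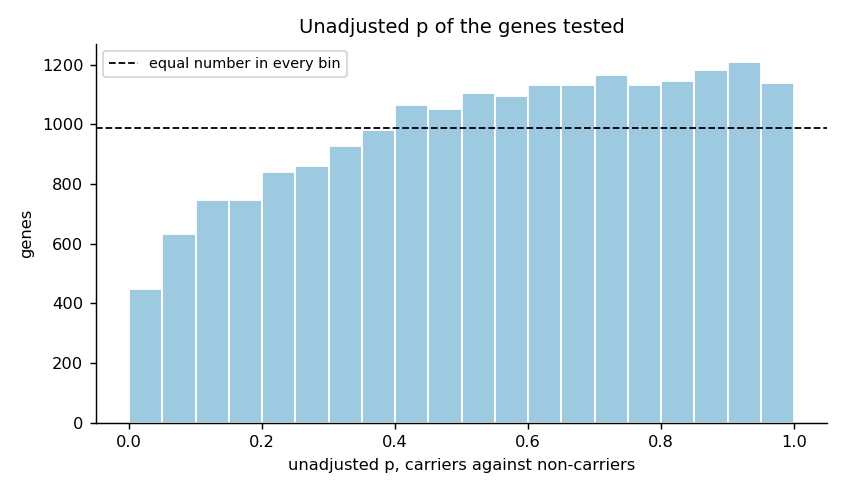
Number of genes (y axis) in each of 20 equal bins of unadjusted p (x axis) for carriers against non-carriers, over 19736 genes. The dashed line is an equal number in every bin, and the first bin, p under 0.05, holds 450 genes and lies below it.

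The transgene took up little of the variation between libraries. Among 15772 genes with a mean of at least 1 CPM (gene counts scaled to a common library size with TMM factors), the transgene accounted for a median of 2.08% of a gene's variance on the log2 scale. The Lepob/+ genotype accounted for 6.28% and the interaction of both for 5.6%. The means over the same genes were 4.55% for the transgene, 8.97% for Lepob/+ and 8.29% for the interaction. An even share for 1 of 15 degrees of freedom would be a mean of 6.67%, which is to be set beside these means and not beside the medians. Of these genes, 13355 (84.7%) had a 95% confidence interval that lay within 1 log2 unit of no change, and 8196 (52%) had one within 0.5. Their median absolute log2 fold change was 0.0975 and their median standard error (SE) was 0.176. A change of more than 2-fold was therefore outside the interval for most expressed genes.

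Transcripts of lymph node and muscle led the main components of the most variable genes. The first principal component of the 500 most variable genes held 50.5% of their variance and was led by Glycam1 and Ccl21a, genes of lymph node vessels and stroma. The mean of a 28-gene T cell list was between 5.58 and 6.32 log2 CPM in SOD1G93A replicates 1, 2 and 4 and between 5.3 and 5.92 in WT replicates 1 and 2 and Lepob/+ replicate 3, and was at or below 0.9 in the other 10 libraries. Lymph node transcripts were thus high in 3 of 8 carriers and 3 of 8 non-carriers, but in 3 of 4 SOD1G93A and 0 of 4 SOD1G93A-Lepob/+ libraries. The second component held 30% and was led by Ckm, Atp2a1 and Myh4, genes of skeletal muscle. The muscle list was at 11.61 log2 CPM in Lepob/+ replicate 4 and 6.43 in WT replicate 3, both non-carriers, and at most 3.33 elsewhere. The library labelled SOD1G93A-Lepob/+ replicate 3 had 0 counts of Xist and 1756 of 4 Y chromosome genes, against 11895 to 28034 and 0 in the other 15, and so goes against its female label. Total counts ran from 36.8 to 61.9 M per library.

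**Figure D2:**
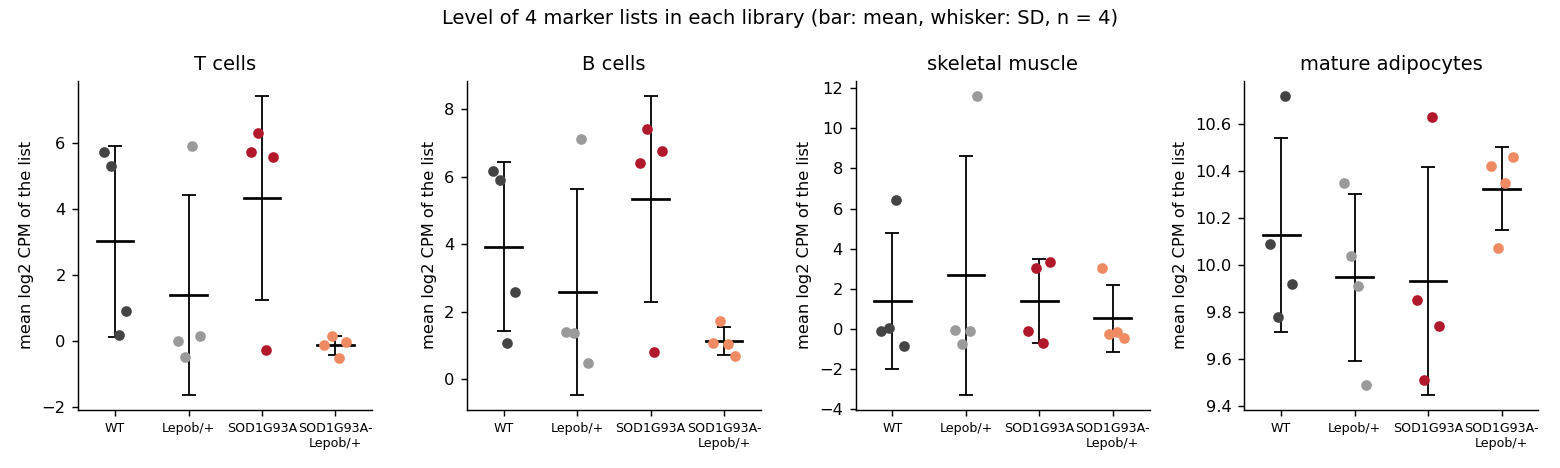
Mean log2 CPM (y axis) of the T cell, B cell, skeletal muscle and mature adipocyte lists in each library, by genotype (x axis), with the mean and SD of 4 libraries. High T and B cell values occur in 3 SOD1G93A, 2 WT and 1 Lepob/+ libraries, and the muscle list reaches 11.61 in Lepob/+ replicate 4.

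No difference was detected in the mouse genes that stand closest to the transgene. Mouse Sod1 (ENSMUSG00000022982, chromosome 16, 90220754 to 90226329, GRCm38) was at 299 to 449 CPM in carriers (median 382) and at 277 to 497 CPM in non-carriers (median 374). The ranges overlapped almost entirely, and the log2 fold change was -0.01 (SE 0.13, 95% interval -0.28 to 0.27). All IDs in the table are mouse genes, so the human transgene itself was not counted and the carrier labels were not checked by it. Ccs, the chaperone that delivers copper to SOD1, was at 32.3 ± 2.71 CPM in carriers and 30.6 ± 2.96 in non-carriers (SD, n = 8 each), a log2 fold change of 0.07 (SE 0.07). Mitochondrial Sod2 had a log2 fold change of -0.16 (SE 0.23) and extracellular Sod3 one of 0.16 (SE 0.27). Sod2 was at 258 CPM in the muscle-rich library Lepob/+ replicate 4 against 73.6 to 156 CPM in the other 15, and its estimate was 0.07 without that library. Among 31 superoxide dismutases and antioxidant enzymes, 19 estimates were above 0 and 12 below, 0 were at an unadjusted p under 0.05, and the median was 0.04, beside -0.01 for all genes tested.

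Lep itself was at 243 to 1843 CPM in carriers (median 563) and at 181 to 687 CPM in non-carriers (median 502). The highest value was that of the library labelled SOD1G93A-Lepob/+ replicate 3, and the ranges overlapped. Its log2 fold change was 0.55 (SE 0.42, 95% interval -0.34 to 1.45), with 0.14 between SOD1G93A and WT and 0.97 between SOD1G93A-Lepob/+ and Lepob/+, and it was at 0.25 without the library labelled SOD1G93A-Lepob/+ replicate 3. The leptin receptor gene Lepr had a log2 fold change of 0.41 (SE 0.32), and its highest value, 19.9 CPM, was in SOD1G93A replicate 2, without which it was at 0.13.

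Among the genes higher in carriers, 2 of the 3 with the smallest p were co-chaperones, and the other was Appbp2. Dnaja1 (chromosome 4, 40722150 to 40737149) and Dnajb1 (chromosome 8, 83608193 to 83612653) encode J-domain co-chaperones that hand unfolded proteins to Hsp70, and both belong to the textbook heat shock response. Dnaja1 was at 116 to 156 CPM in carriers (median 136) and at 108 to 126 CPM in non-carriers (median 113). All 8 carriers lay above the non-carrier median, and 2 carriers, SOD1G93A-Lepob/+ replicate 2 and SOD1G93A replicate 4, lay within the non-carrier range. The log2 fold change was 0.24 (SE 0.07, 95% interval 0.09 to 0.38, edgeR unadjusted p = 0.00367, adjusted p = 1).

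Dnajb1 was at 35.6 to 48.1 CPM in carriers (median 41) and at 27 to 39.5 CPM in non-carriers (median 35.8). Here 7 of 8 carriers lay above the non-carrier median, and the same SOD1G93A-Lepob/+ replicate 2 was the exception. The log2 fold change was 0.25 (SE 0.07, 95% interval 0.09 to 0.41, edgeR unadjusted p = 0.00429). Both genes had nearly the same estimate within each Lep genotype, 0.23 and 0.25 for Dnaja1 and 0.29 and 0.21 for Dnajb1. Of 20 cytosolic heat shock chaperones, 10 estimates were above 0 and 10 below, these 2 were at an unadjusted p under 0.05, and the median was 0. The mean level of this list was 6.89 log2 CPM in the muscle-rich Lepob/+ replicate 4 and 6.05 to 6.48 in the other 15 libraries, and its median was 0.09 without that library.

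The promoters of both genes are shown because they had similar estimates and a shared textbook regulator, heat shock factor 1. The windows run from 250 bases before to 50 bases after a RefSeq start site (GRCm38.p6, plus strand, both genes matched). Capitals mark GAANNTTC or TTCNNGAA, pairs of the short unit that heat shock factors bind, both of which read the same on either strand.
Dnaja1, chr4:40722218-40722517: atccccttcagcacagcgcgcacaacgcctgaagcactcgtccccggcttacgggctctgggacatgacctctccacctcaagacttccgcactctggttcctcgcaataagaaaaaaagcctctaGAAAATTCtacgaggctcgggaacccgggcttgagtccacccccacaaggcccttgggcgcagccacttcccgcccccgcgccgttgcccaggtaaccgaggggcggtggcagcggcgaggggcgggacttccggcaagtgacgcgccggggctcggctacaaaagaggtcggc
Dnajb1, chr8:83607925-83608224: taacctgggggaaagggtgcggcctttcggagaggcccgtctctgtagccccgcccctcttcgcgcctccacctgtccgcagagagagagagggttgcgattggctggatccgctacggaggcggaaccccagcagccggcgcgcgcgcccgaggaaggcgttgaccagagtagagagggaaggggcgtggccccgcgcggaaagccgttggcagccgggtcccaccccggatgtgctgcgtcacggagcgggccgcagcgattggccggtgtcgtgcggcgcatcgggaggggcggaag
The Dnaja1 window shown held 1 match, starting 124 bases before the start site, and the Dnajb1 window shown held 0. RefSeq gives 2 further windows for Dnaja1 and 1 further window for Dnajb1, which held 0 matches and are not shown. Of 32851 promoter windows of 300 bases in the RefSeq table, 4946 (15.1%) held at least 1 match, so a match is common and is given as a description of the letters only.

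Other genes of protein folding and clearance were read from fixed lists and from the genes with the smallest p. Ero1l, the oxidase that makes disulfide bonds in the endoplasmic reticulum, was at 30 to 34.8 CPM in carriers (median 32.4) and 24 to 31.4 CPM in non-carriers (median 28.3), with all 8 carriers above the non-carrier median. Its log2 fold change was 0.20 (SE 0.07, edgeR unadjusted p = 0.00922). In the list of 31 genes of the unfolded protein and integrated stress responses, 15 estimates were above 0, 16 were below, 0 were at an unadjusted p under 0.05 and the median was -0.02. The closest to that p were Slc3a2, a subunit of amino acid transporters (log2 fold change 0.15, SE 0.07), Chac1, which breaks down glutathione (-1.64, SE 0.78), and Dnajc3, a co-chaperone of the endoplasmic reticulum (0.15, SE 0.08). Chac1 was at 138 CPM in Lepob/+ replicate 4 against 2.33 to 8.35 CPM in the other 15 libraries, and at -0.27 without that library. For the proteasome, ubiquitin and autophagy list, 10 estimates of 34 were above 0, 24 were below and the median was -0.07, with 0 at an unadjusted p under 0.05.

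The remaining genes with the smallest p among those higher in carriers had varied roles. Caprin1, an RNA-binding protein of stress granules, was at 206 to 245 CPM in carriers (median 233) and at 183 to 215 CPM in non-carriers (median 203). Only SOD1G93A-Lepob/+ replicate 2 of the carriers fell within the non-carrier range, and the log2 fold change was 0.19 (SE 0.06, edgeR unadjusted p = 0.00909). Appbp2, which binds the amyloid precursor protein, had a log2 fold change of 0.19 (SE 0.06), Caap1, an inhibitor of apoptosis, 0.40 (SE 0.13), and Slc30a5, a zinc transporter of the secretory pathway, 0.31 (SE 0.10).

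Slc19a2, a thiamine transporter, was at 6.26 to 8.55 CPM in carriers (median 7.82) and at 1.44 to 7.66 CPM in non-carriers (median 2.68). The carriers lay close together, while 3 non-carriers, Lepob/+ replicates 1 and 4 and WT replicate 1, lay near or within their range. The log2 fold change was 1.04 (SE 0.32, 95% interval 0.36 to 1.72, edgeR unadjusted p = 0.00532). Kmt2a, a histone H3 lysine methyltransferase, had a low and a high band of levels. It was at 57.8 to 110 CPM in 6 carriers and 2 WT mice (54.2 and 57 CPM), and at 2.76 to 10.7 CPM in the other 2 carriers and 6 non-carriers. Its log2 fold change of 2.17 (SE 0.72, 95% interval 0.64 to 3.70, edgeR unadjusted p = 0.00867) is therefore a difference in how many mice lay in each band.

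Wdr66, which encodes a protein of cilia and flagella, had the smallest p of all genes (ENSMUSG00000029442, chromosome 5, 123252102 to 123327484). It was at 3.45 to 4.92 CPM in carriers (median 4.32) and at 4.54 to 6.82 CPM in non-carriers (median 6.16). All 8 carriers lay below the non-carrier median, and the overlap came from Lepob/+ replicate 3 at 4.54 CPM. The log2 fold change was -0.49 (SE 0.11, 95% interval -0.72 to -0.26), with an edgeR unadjusted p of 0.000439 that did not pass adjustment. Within Lep genotypes it was -0.51 and -0.47. It was the 1 gene that DESeq2 called (log2 fold change -0.51, SE 0.11, adjusted p = 0.0426).

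Pcmtd1, which has an isoaspartate methyltransferase domain, and Pbrm1, a subunit of a chromatin remodelling complex, had estimates below 0 and a narrower range in carriers. Pcmtd1 was at 19.8 to 38.8 CPM in carriers (median 27.9), whereas non-carriers were at 73.1 to 99.2 CPM in 5 mice and at 21.4 to 33.4 CPM in 3. Its log2 fold change was -1.17 (SE 0.28, 95% interval -1.77 to -0.58, edgeR unadjusted p = 0.000787). Pbrm1 was at 11.9 to 28.3 CPM in carriers (median 14.3) and at 14.1 to 60.7 CPM in non-carriers (median 45). Non-carriers again divided, with 2 at 14.1 and 14.3 CPM and 6 at 30.9 CPM or more, and the log2 fold change was -1.25 (SE 0.31, edgeR unadjusted p = 0.00107), or -0.54 with limma voom.

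Fbxw7, the substrate receptor of a ubiquitin ligase, was at 6.85 to 10.6 CPM in carriers (median 7.43) and at 7.68 to 28.9 CPM in non-carriers (median 13.9), a log2 fold change of -0.86 (SE 0.24, edgeR unadjusted p = 0.00258). The Fbxw7 estimate was -0.38 between SOD1G93A and WT and -1.34 between SOD1G93A-Lepob/+ and Lepob/+. Its highest value was in the muscle-rich Lepob/+ replicate 4, and with 1 library left out the averaged estimate ran from -0.97 to -0.69. The host transcript of small nucleolar RNAs Snhg3 had a log2 fold change of -0.56 (SE 0.15), Pyurf -0.44 (SE 0.14) and Tmem265 -1.60 (SE 0.47, or -1.04 without Lepob/+ replicate 2). The 3 other genes with the smallest p among those lower in carriers were highest in the most muscle-rich library. Myhas, an antisense transcript in the myosin heavy chain cluster, was at 35.9 CPM in Lepob/+ replicate 4 and 2.51 CPM in WT replicate 3, against at most 0.538 CPM elsewhere. Klhl30 reached 119 CPM and Kcnc4 84 CPM in Lepob/+ replicate 4. Their log2 fold changes were -5.73 (SE 1.33), -5.09 (SE 1.59) and -5.54 (SE 1.79), and without both muscle-rich libraries Myhas was at -1.83 and Klhl30 at -0.33. The strand setting of the counting is not stated, so Myhas reads cannot be told apart from those of the myosin genes it overlaps.

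**Figure D3:**
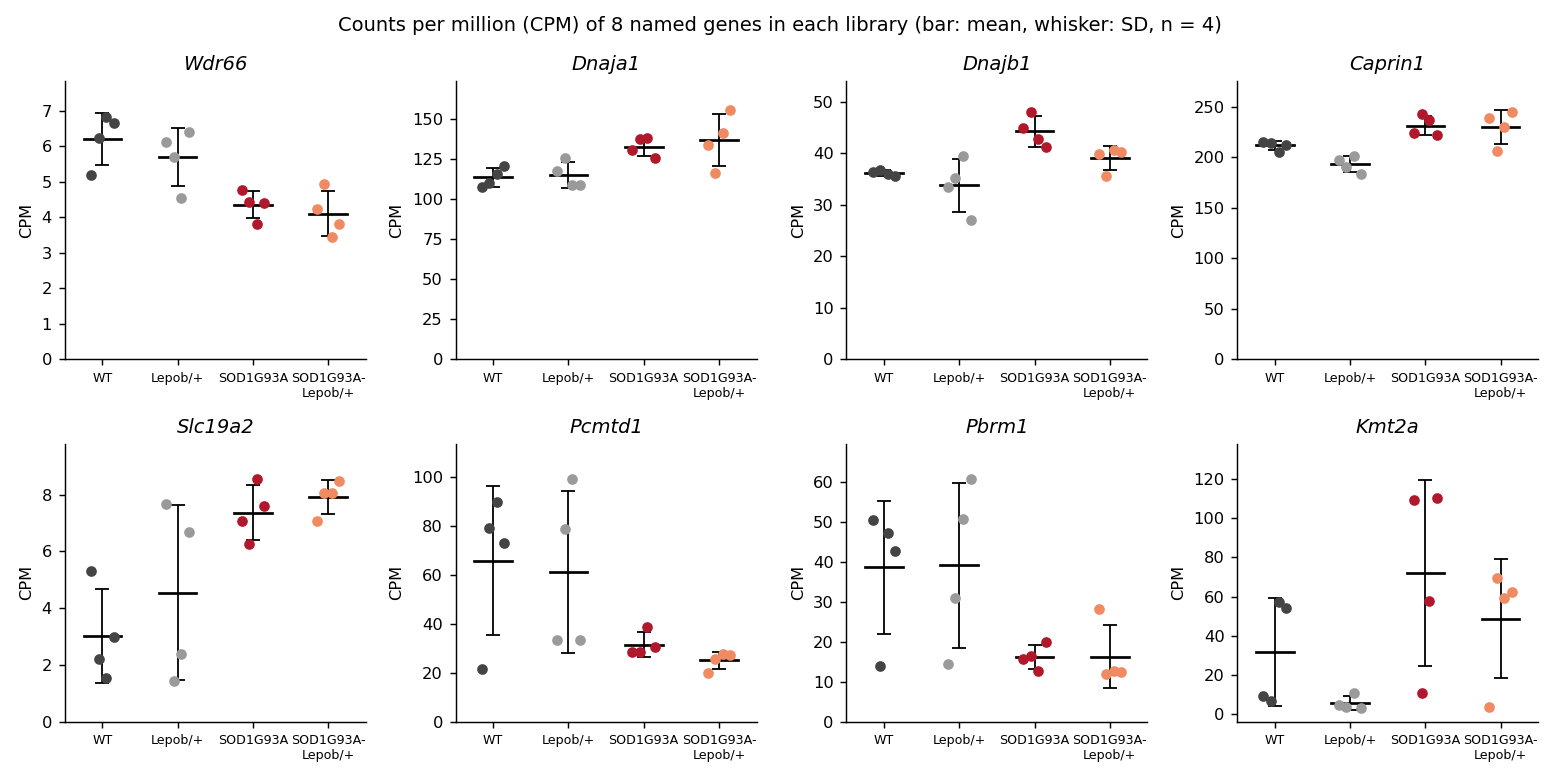
CPM (y axis) of 8 genes in each of the 16 libraries, by genotype (x axis), with the mean and SD of 4 libraries. Carriers (red and orange) lie mostly below non-carriers (grey) for Wdr66, Pcmtd1 and Pbrm1 and mostly above them for Dnaja1, Dnajb1, Caprin1, Slc19a2 and Kmt2a, and for each gene at least 1 mouse overlaps the other group.

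The effect of the transgene was also fitted within each Lep genotype, between SOD1G93A and WT and between SOD1G93A-Lepob/+ and Lepob/+, which share no library. Of 19736 genes tested, 505 in the first and 1626 in the second were at an unadjusted p under 0.05, where evenly spread p-values would place 987. In either, 0 passed adjustment (smallest adjusted p 0.998 and 0.597). Of the same 19736 genes, 11 were at that p in both and in the same direction, and 29 were in opposite directions. The number to be found in both by chance was not worked out, so these counts do not show agreement or its lack. The test of the difference, the interaction of transgene and Lepob/+, called 0 genes (1574 at an unadjusted p under 0.05, smallest adjusted p 0.564), as did limma voom, while DESeq2 called 41. Several of the 41 were immunoglobulin or T cell receptor segments or lymph node genes with extreme log2 estimates, such as Trbv13-1 (-23.98), Igkv4-70 (-24.62) and Glycam1 (-30). Others had moderate estimates, such as Apoc1 (1.4) and Nectin2 (0.53). The cause of the extreme values was not tested.

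For other genes the estimates within the 2 Lep genotypes had opposite signs. Among those that the study names for this tissue, Itgav, an integrin subunit taken here to be the gene it spells Itagv, was at 5.59, 35.2, 27 and 25.5 CPM in WT and at 3.09 to 7.53 CPM in SOD1G93A, a log2 fold change of -2.16, but was 1.45 log2 units higher in SOD1G93A-Lepob/+ than in Lepob/+, where 1 library at 34.7 CPM stood apart from 7 at 3.11 to 4.74. Ddit4, an inhibitor of mTORC1, was at 19.4 to 40.7 CPM in WT and 61.7 to 90.5 in SOD1G93A (log2 fold change 1.18), and had a log2 fold change of -0.61 between the Lepob/+ genotypes. Averaged over both, Itgav was at -0.36 (SE 0.78, or -1.17 without SOD1G93A-Lepob/+ replicate 1) and Ddit4 at 0.28 (SE 0.36). Neither estimate stood out from its SE. The study names both genes for Lepob/+ against WT in these same mice. That difference enters the 2 within-genotype estimates with opposite signs, so the choice of these genes favours such an opposition.

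The same opposition of signs held for Tppp3 (-0.77 and 0.15), Ptms (-0.60 and 0.24), Znrf1 (1.57 and -0.57), Aqp5 (-1.01 and 1.29), Saa3 (-4.71 and 1.88) and Ucp1 (3.56 and -3.28). Their interaction had edgeR unadjusted p-values between 0.00515 and 0.0205 and passed no adjustment. Aqp5 is named by the study for Lepob/+ against WT. The other 5 were taken from earlier results of the same samples for SOD1G93A against WT. Both contrasts form part of the interaction, so its small p-values were favoured by the choice and are no independent support. Ucp1, the uncoupling protein of thermogenic fat, was at 3.16 to 75.6 CPM in SOD1G93A and 1.48 to 3.25 CPM in WT. It was at 313 CPM in 1 Lepob/+ mouse, 0.833 to 1.91 CPM in the others of that genotype and 0.175 to 27.9 CPM in SOD1G93A-Lepob/+. The averaged log2 fold change of Ucp1 was 0.12 (SE 2.38). Kmt5a had an averaged log2 fold change of 0.55 (SE 0.37), Cxcl10 of 0.62 (SE 0.57) and Mbtd1 of -0.38 (SE 0.29). Gm128 and Gm4613 were listed at 0 in all 4 Lepob/+ mice and at no more than 2.03 CPM elsewhere.

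**Figure D4:**
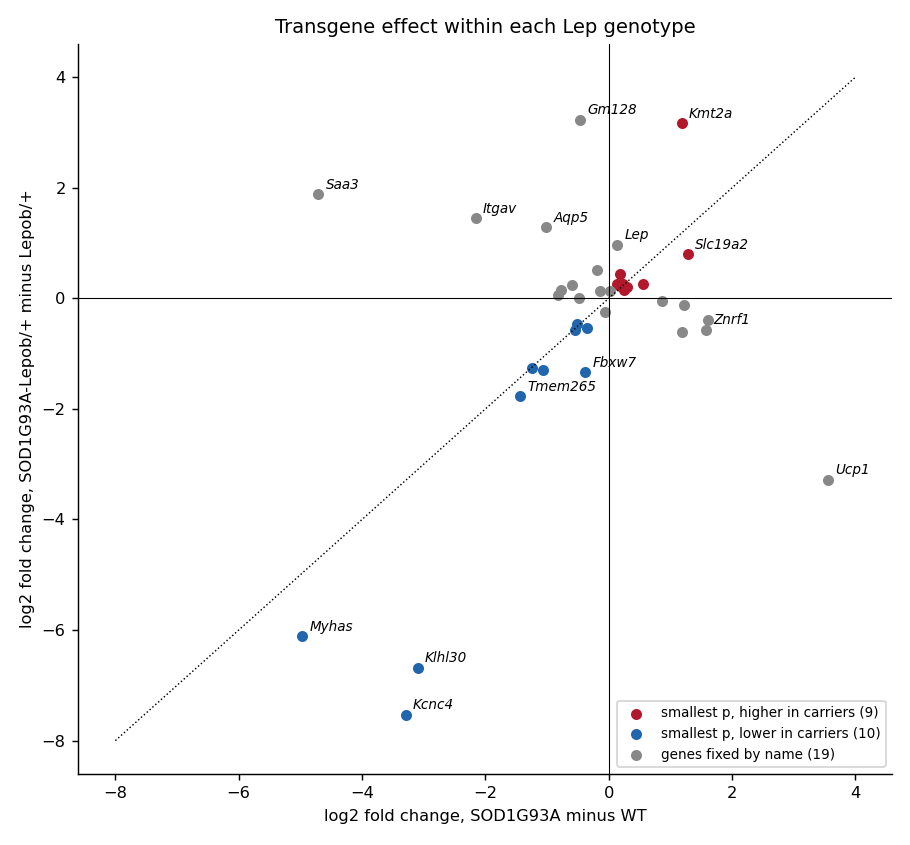
Log2 fold change between SOD1G93A and WT (x axis) and between SOD1G93A-Lepob/+ and Lepob/+ (y axis) for 19 of the genes with the smallest p in the averaged comparison and 19 others fixed by name, from the study, the genotypes or earlier results of these data. The dotted line marks equal effects. These 19 were chosen on the average of both axes and so fall in the lower left and upper right by choice, while Itgav, Aqp5, Saa3 and Ucp1 lie in the other quadrants.

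List medians of fat cell programmes were near 0 when averaged, but few of their genes were estimated closely. Intervals lay within 0.5 log2 units of no change for 2 of 18 mature adipocyte and 3 of 18 lipogenesis genes. The same held for 6 of 16 lipolysis and 1 of 24 collagen genes. Of 18 mature adipocyte genes, 13 estimates were above 0 and 5 below, with a median of 0.07, and the median was -0.19 within Lep+/+ and 0.40 within Lepob/+. De novo lipogenesis had 15 of 18 estimates above 0 (median 0.16), lipolysis and lipid droplets 8 of 16 (median 0), and collagens and matrix 18 of 24 (median 0.14, or 0 without Lepob/+ replicate 4). Within Lep+/+ and Lepob/+ these medians were 0.04 and 0.20 for lipogenesis, -0.23 and 0.29 for lipolysis, and -0.23 and 0.55 for collagens. Lipogenesis, lipolysis and mature adipocyte lists held 0 genes at an unadjusted p under 0.05. In the collagen list Col12a1, a collagen that coats fibrils, was at 10.2 to 31.7 CPM in carriers (median 15.2) and 5.11 to 15.9 CPM in non-carriers (median 8.96), with all 8 carriers above the non-carrier median and a log2 fold change of 0.72 (SE 0.25, edgeR unadjusted p = 0.0121).

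In the insulin signalling list of 25 genes, Foxo1, the transcription factor that insulin holds out of the nucleus, was the 1 gene at an unadjusted p under 0.05 (log2 fold change 0.29, SE 0.13, all 8 carriers above the non-carrier median of 85.1 CPM). Errfi1, a feedback inhibitor of the EGF receptor, was the 1 of 16 glucocorticoid and fasting genes (0.66, SE 0.29). It was at 229 CPM in SOD1G93A-Lepob/+ replicate 4 and 57 to 112 CPM in the other 7 carriers, and at 0.41 without that library (edgeR unadjusted p = 0.135), and 14 of that list were above 0 (median 0.17). In the clock list of 19 genes, the repressor Bhlhe40 had a log2 fold change of -0.56 (SE 0.22) and the activator Arntl one of -0.55 (SE 0.26), with a list median of -0.02. Bhlhe40 was highest in the muscle-rich Lepob/+ replicate 4 (236 CPM) and WT replicate 3 (192 CPM), and its estimate was -0.20 without these 2 libraries.

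Nuclear genes of oxidative phosphorylation, the respiratory chain of mitochondria, all had estimates below 0 (31 of 31, median -0.21), but 0 were at an unadjusted p under 0.05, and the one with the smallest p, Ndufa4, was at -0.29 (SE 0.14). Their mean level was 8.22 log2 CPM in Lepob/+ replicate 4 and 7.74 in WT replicate 3, the muscle-rich libraries, and 6.98 to 7.59 in the others. Without Lepob/+ replicate 4 the median was -0.08, and without both it was 0. In the skeletal muscle list all 24 estimates were below 0, 14 at an unadjusted p under 0.05, with a median of -5.37 that became -1.09 without that library and 1.57 without both. Myh4, a fast myosin, was at 61560 CPM there and at 1269 CPM in WT replicate 3, against at most 46.7 CPM elsewhere. Fbxo32, the ubiquitin ligase of muscle atrophy, had a log2 fold change of -1.60 (SE 0.72) in which that library, at 605 CPM, stood apart from the other 15 at 18.4 to 34.4, and it was at -0.25 without that library.

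Thermogenic adipocyte genes had 8 of 18 estimates above 0 (median -0.09, or 0.36 within Lep+/+ and -1.19 within Lepob/+), with Ppargc1a, a coactivator of mitochondrial genes, at -0.59 (SE 0.29) and again highest, at 16 CPM, in Lepob/+ replicate 4, without which it was at -0.31. Other lists that held 0 genes at an unadjusted p under 0.05 were fatty acid oxidation (median -0.10), adipokines (0.05), immediate early genes (-0.08), progenitors and fibroblasts (0.06), endothelium (0.05) and nerve and Schwann cells (-0.16). The same was true of cell cycle genes (-0.19), glandular epithelium (0.09) and red blood cells (-0.33). The neuromuscular junction and denervation list, which holds Fbxo32, had a median of -0.51 that was 0.05 without Lepob/+ replicate 4.

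Lymphocyte genes moved with the other lymph node transcripts of the pad. Lymph node content was not measured apart from these transcripts, so an included node cannot be told apart from lymphocytes within the fat. Its part in the other results was not tested beyond the covariate and omissions given here. In bulk tissue, fewer cells of a type and less RNA per cell cannot be told apart. All 28 T cell estimates were below 0 (median -1.59) and 18 of 20 B cell estimates (median -1.68), with 0 at an unadjusted p under 0.05, and the lymph node stroma list had a median of -1.57. The direction turned with the Lep genotype. The T cell median was 0.92 within Lep+/+ and -4.32 within Lepob/+, and without Lepob/+ replicate 3, the 1 lymph node-rich library among the Lepob/+ genotypes, the averaged median was 0.52. The means also differed in sign from the fit. The B cell receptor subunit Cd79a was at 92.5 ± 134 CPM in carriers and 72.8 ± 110 CPM in non-carriers (SD, n = 8 each), while its fitted log2 fold change was -2.07 (SE 2.56).

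Macrophage genes had 3 of 18 estimates above 0 (median -0.20), and cytotoxic lymphocyte (-0.25), plasma cell (-0.32) and interferon-stimulated genes (0.08) likewise held 0 at an unadjusted p under 0.05. Mast cell proteases had estimates above 0. Cpa3 was at 14.5 to 29 CPM in carriers (median 24.3) and 7.23 to 24.3 CPM in non-carriers (median 14.9), a log2 fold change of 0.59 (SE 0.24, edgeR unadjusted p = 0.0262), and Cma1 had one of 0.55 (SE 0.24). The high-affinity IgE receptor subunit Ms4a2, at only 5 to 42 counts per library, had one of 0.82 (SE 0.39). In the mast cell and neutrophil list, 2 genes were at an unadjusted p under 0.05, both higher in carriers. The lowest Cpa3 value was that of Lepob/+ replicate 4, and 10 of 14 mast cell and neutrophil estimates were above 0 (median 0.23).

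Single immune genes at an unadjusted p under 0.05 included Mmp12, the macrophage elastase, with a log2 fold change of 1.48 (SE 0.52) that rested on 21.7 CPM in the library labelled SOD1G93A-Lepob/+ replicate 3 against 1.48 to 3.59 CPM in the other 7 carriers and 1.05 to 1.90 CPM in non-carriers. Without that library it was at 0.60. Its list of 16 lipid-associated macrophage genes had a median of -0.01. The anti-inflammatory cytokine Il10 had a log2 fold change of -1.11 (SE 0.46) at means of 0.793 and 1.70 CPM, in a cytokine list with a median of -0.17. Batf3, a transcription factor of cross-presenting dendritic cells, had one of -0.54 (SE 0.20), in a list with a median of -0.27.

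**Figure D5:**
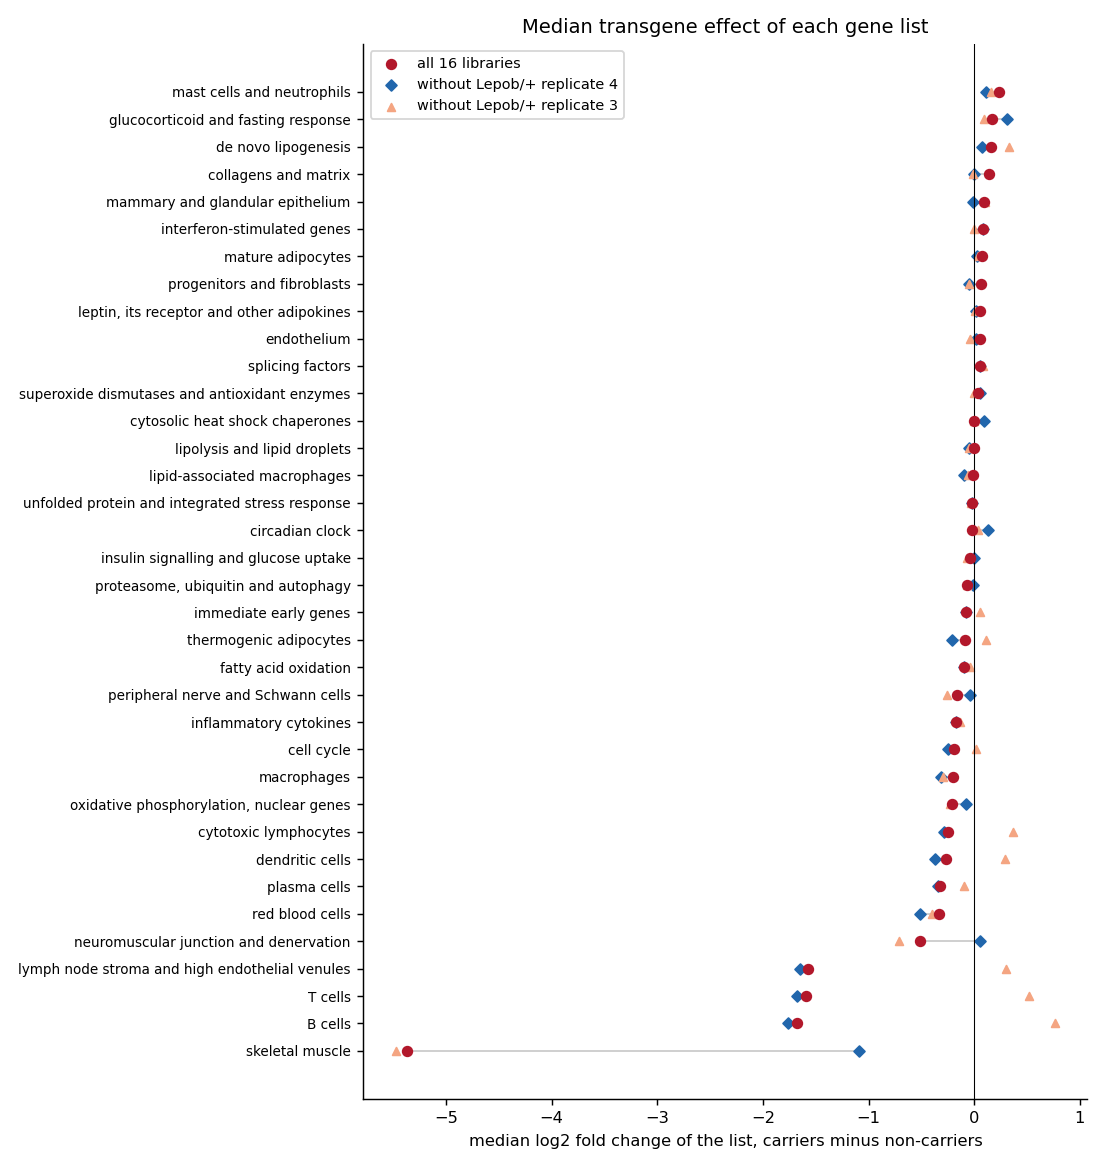
Median log2 fold change of each of 36 gene lists, carriers minus non-carriers (x axis), with all 16 libraries (circles), without Lepob/+ replicate 4 (diamonds) and without Lepob/+ replicate 3 (triangles). Most lists lie near 0, the muscle list moves from -5.37 to -1.09 without Lepob/+ replicate 4, and the T cell list moves from -1.59 to 0.52 without Lepob/+ replicate 3.

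Splicing factors, which process pre-mRNA, were estimated closely. Of 47 genes, 36 estimates were above 0 and 11 below, the median was 0.05, and 47 of 47 had a 95% interval within 1 log2 unit of no change. The median was 0.21 within Lep+/+ and -0.07 within Lepob/+. The mean level of the list was 6.95 to 7.2 log2 CPM in the libraries high in lymph node transcripts and 6.72 to 6.94 in the others. Luc7l3, a component of the U1 snRNP, was at 57.3 to 133 CPM in carriers (median 88.3) and 50.3 to 79 CPM in non-carriers (median 66.6), a log2 fold change of 0.49 (SE 0.17, edgeR unadjusted p = 0.00996). Srsf10, a regulator of splicing after heat shock, had one of 0.38 (SE 0.14, edgeR unadjusted p = 0.015), with all 8 carriers above the non-carrier median. The 2 were the only genes of the list at that p. By chromosome, the share of genes at an unadjusted p under 0.05 ran from 0.942% on X to 4.07% on 18 among the autosomes and X, beside 2.28% for all.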

How the data were processed

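Gene expression was measured by bulk RNA sequencing of iWAT in 16 libraries. Per the labels and the study's methods, the authors aligned reads to mm10 with HISAT2 2.1.0, counted them per gene with featureCounts 2.0.2 and deposited raw counts with no normalization (54752 gene IDs, of which 54723 were paired with a symbol and GRCm38 coordinates). The study names a stranded kit and the labels another, and the strand setting is not given in the sources used here. The n are individual mice.

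The analysis used edgeR 4.0.16 in R 4.3.3. The filter was filterByExpr, given the 4 genotypes, with a minimum count of 10 in enough libraries and a total of 15, and scaling was by TMM. The transgene was tested by robust quasi-likelihood F in an additive model with Lepob/+ (13 residual degrees of freedom). P-values were adjusted over all genes by Benjamini-Hochberg at 0.05, and log2 values used a prior count of 1. Totals were 36.8 to 61.9 M per library, so counting error weighs most on genes near 0 counts. Intervals are 95% confidence intervals of the fitted log2 fold change.

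The genes named were the 10 in each direction with the smallest p (mean of at least 1 CPM, no predicted symbols), genes tied to the genotypes or named by the study or by earlier results of these data, up to 3 per list with the smallest p and genes called by other tools. The text gives a part of these, chosen with their values seen, and 1 gene is not reported here. The comparison, 37 lists (747 genes) and these rules were chosen with earlier results of these data known. One list, of X-inactivation and Y chromosome genes, served only to check the labels.

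Alternatives were DESeq2 1.42.0, limma 3.58.1 voom with quality weights, other normalizations and filters, other terms in the model, covariates for lymph node and muscle content, and leaving out libraries. The omission of Lepob/+ replicate 4 with WT replicate 3 was chosen after seeing the data. Of 24 pairs of libraries with the same replicate number, residuals correlated above 0.1 in 5 and below -0.1 in 8, so the numbers were not taken to pair the mice.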

Additional observations from a re-analysis of the deposited data

Results flagged for a closer look

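Of 152 sets of 4 libraries of 1 genotype, for 38 genes, 13 had a library that stood apart by Dixon's test on log2 CPM, where chance gives about 1 in 20. Many of the 38 genes were chosen from results of these same libraries, so 1 in 20 is only a rough guide. For Myhas and Kcnc4 a library at 0 was set against 5 to 7 counts, where log2 CPM depends on the prior count. Pbrm1 was at 28.3 CPM in SOD1G93A-Lepob/+ replicate 1 against 11.9 to 12.8 in the other 3 mice of its genotype. Sod3 was at 465 CPM in SOD1G93A replicate 3 against 202 to 232 in the other 3 mice of its genotype. Ucp1 was at 313 CPM in Lepob/+ replicate 3 against 0.833 to 1.91 in the other 3 mice of its genotype. Saa3 was at 32.7 CPM in WT replicate 1 against 0.258 to 0.37 in the other 3 mice of its genotype. Mbtd1 was at 36.8 CPM in SOD1G93A replicate 4 against 8.74 to 9.94 in the other 3 mice of its genotype. Dnajb1 was at 35.6 CPM in SOD1G93A-Lepob/+ replicate 2 against 39.9 to 40.6 in the other 3 mice of its genotype. Kmt2a was at 3.39 CPM in SOD1G93A-Lepob/+ replicate 1 against 59.2 to 69.3 in the other 3 mice of its genotype. Myhas was at 0 CPM in SOD1G93A-Lepob/+ replicate 3 against 0.14 to 0.155 in the other 3 mice of its genotype. Pcmtd1 was at 21.4 CPM in WT replicate 1 against 73.1 to 89.5 in the other 3 mice of its genotype. Pbrm1 was at 14.1 CPM in WT replicate 2 against 42.7 to 50.5 in the other 3 mice of its genotype. Kcnc4 was at 0 CPM in SOD1G93A replicate 3 against 0.107 to 0.115 in the other 3 mice of its genotype. Gm4613 was at 0 CPM in WT replicate 2 against 1.38 to 1.94 in the other 3 mice of its genotype. Cxcl10 was at 1.38 CPM in SOD1G93A-Lepob/+ replicate 4 against 2.52 to 2.75 in the other 3 mice of its genotype. 

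The library labelled SOD1G93A-Lepob/+ replicate 3 held 1756 counts of 4 Y chromosome genes, against 0 in each of the other 15 libraries, although all are labelled female. It also held the highest Lep (1843 CPM), Sod3 (744 CPM) and Mmp12 (21.7 CPM) of the 8 carriers. Its part in these values was not tested beyond leaving it out.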

How the results depend on the processing

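With edgeR, 0 genes passed the threshold with every normalization, filter and omission of libraries that was run. DESeq2 called 1 gene (Wdr66), the lymph node covariate 1 (Bpifb3, log2 fold change -1.42) and the muscle covariate 2 (Lmod2 and Myf6). The genes called with a covariate had 0 counts in most libraries. Bpifb3 had 24 to 182 counts in the libraries high in lymph node transcripts and 0 in the others. Lmod2 and Myf6 were highest in Lepob/+ replicate 4, at 9100 and 1945 counts. Genes at an unadjusted p under 0.05 numbered 1231 with voom, 995 of 31407 with no filter, 806 with the lymph node covariate and 278 with the replicate block (450 in the report), and from 280 to 824 when 1 library was left out, the extremes being without SOD1G93A-Lepob/+ replicate 4 and without Lepob/+ replicate 3. These counts were also 298 without SOD1G93A-Lepob/+ replicate 1 and 297 without the library labelled replicate 3 of that genotype. The replicate block changed no call. The balance of 166 higher and 284 lower turned without Lepob/+ replicate 4 (229 and 189), without WT replicate 3 (201 and 179), without SOD1G93A-Lepob/+ replicate 1 (156 and 142), with the block (150 and 128), with the lymph node (497 and 309) and muscle (199 and 153) covariates and with voom (682 and 549). It also turned with the library labelled SOD1G93A-Lepob/+ replicate 3 and Lepob/+ replicate 4 both left out (219 and 169), or without Lepob/+ replicate 4 and WT replicate 3 (354 and 196). DESeq2 size factors moved it the other way (123 and 316). Genes with no overlap numbered 1 with no filter, 3 and 5 without those pairs, and from 0 to 7 without 1 library. The interaction called 41 genes with DESeq2, 5 with the muscle covariate and from 0 to 2 without 1 library (2, Ptp4a1 and Fbxo34, without the library labelled SOD1G93A-Lepob/+ replicate 3).

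Signs turned for genes near no change or tied to 1 library, and the cause was not tested. With voom, Sod2 was at 0.20, Cd79a at 1.18, Myh4 at 0.70, Lmod2 at 2.05 and Myf6 at 1.31. With the muscle covariate, Sod2 was at 0.03, Ucp1 at -0.27, Lmod2 at 1.72 and Myf6 at 0.57. Without the Lepob/+ term, Aqp5 was at -0.03, Ucp1 at -1.19 and Cd79a at 0.35, and with the replicate block Aqp5 was at -0.18 and Cd79a at 0.25. With the library labelled SOD1G93A-Lepob/+ replicate 3 and Lepob/+ replicate 4 both left out, Sod2 was at 0.05, Sod3 at -0.06, Lmod2 at 0.94 and Myf6 at 0.13. Without Lepob/+ replicate 4 and WT replicate 3, Sod2 was at 0.18, Ucp1 at -1.04, Myh4 at 3.66 and Lmod2 at 3.97. Leaving out 1 library gave ranges of -0.86 to 3.15 for Ucp1, -2.27 to 1.01 for Saa3, -0.07 to 0.06 for Sod1, -3.18 to 0.96 for Cd79a, -0.24 to 0.07 for Sod2, -0.20 to 0.39 for Aqp5, -5.67 to 0.86 for Lmod2, -5.05 to 0.09 for Myf6, -0.20 to 0.80 for Cxcl10 and -0.01 to 0.26 for Sod3. The 19 genes of smallest p reported here kept their direction in every setting that gave an estimate. They were chosen for their p in these same libraries, so a kept direction is no independent support. Sizes still moved, as for Klhl30 (-6.22 to -0.33) and Kcnc4 (-6.66 to -1.15). Depth limits genes near 0 counts most.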

Other observations

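Several genes fell into a low and a high band of levels rather than around a mean. Itgav was at 25.5 to 35.2 CPM in 3 WT mice and 1 SOD1G93A-Lepob/+ mouse and at 3.09 to 7.53 CPM in the other 12. Znrf1, a ubiquitin ligase, was at 41.5 to 62.8 CPM in 3 Lepob/+, 3 SOD1G93A and 2 SOD1G93A-Lepob/+ mice and at 10.7 to 21.5 CPM in the other 8. Mbtd1, a chromatin protein, was at 8.74 to 9.94 CPM in 3 SOD1G93A mice and at 18.9 to 36.8 CPM in the other 13. The mice in the low or high band differed from gene to gene, and the bands of Kmt2a, Pcmtd1 and Pbrm1 in the report were also set by different mice. No test of these bands was made.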
